A study of Mus musculus with 2 samples.

Results

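The cytosolic ribosomal protein genes were followed here on a single array that set homozygous against heterozygous Foxj1lacZ fetal lung. They were taken by name: an array probe counted where its gene name had the form Rpl or Rps with a number and, for some, a suffix letter, or was Rplp0, Rplp1, Rplp2, Rpsa or Lamr1. The rule found 81 of the array's 27745 gene names, measured by 135 of 41174 mouse probes at 144 spots. Every one of the 81 names was found in the RefSeq gene table, 80 under the same symbol, and Rps3a is now Rps3a1.

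The study compared lung lobes of male embryos of the Foxj1lacZ strain on a hybrid Sv129/CD-1 background at E16.5, with tissue outside the lobes removed. There was 1 lung of each genotype, from littermates, and no wild-type lung on this array. Total RNA, 100 ng a genotype, went through 1 round of amplification into cRNA, and the heterozygous sample was labelled with Cy3 (green) and the homozygous sample with Cy5 (red). Both were hybridised to 1 array of probes 60 bases long, with no dye swap, so genotype and dye cannot be told apart, no difference has a replicate check, and no p-value is given. The labels name the source lung epithelium in one place and lung lobes in another, and the mesenchymal gene Fgf10 was well above background in both channels.

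A ribosome has a large and a small subunit, each an assembly of ribosomal RNA with many small basic proteins, most of them present in a single copy. Their messages are among the most abundant of growing cells, and most start with a C followed by a run of pyrimidines, the 5′ terminal oligopyrimidine (TOP) tract, through which the mTORC1 kinase sets how well they are translated. Mammalian genomes also hold many processed pseudogenes of these genes, nearly identical in sequence, so a probe named for a ribosomal protein can pick up more than 1 locus.

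The probes that carry the main contrast between and within genes are shown for what they share and where they differ. Each reads through without a stop codon in at least 1 frame, which does not settle whether it lies in coding sequence. Capitals mark the letters at which the overlapping Rpl35a probes differ, and a probe with no such partner is all in lower case.
Rpl35a, log2 ratio 1.36: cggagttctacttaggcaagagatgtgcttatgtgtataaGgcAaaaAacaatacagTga
Rpl35a, log2 ratio -0.65: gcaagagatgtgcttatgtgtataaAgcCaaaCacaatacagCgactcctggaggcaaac
Rplp0, log2 ratio 0.16: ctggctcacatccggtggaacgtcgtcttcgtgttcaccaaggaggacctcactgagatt
Arbp, the older symbol of Rplp0, log2 ratio 1.82: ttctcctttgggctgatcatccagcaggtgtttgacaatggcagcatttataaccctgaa

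The log2 ratio throughout is the homozygous (red) over the heterozygous (green) level of a probe, so 1 is a 2-fold higher and -1 a 2-fold lower level in the homozygous lung. Levels are normalised log2 intensities, and a level of one probe says nothing against the level of another. The error printed after ± is the scanner software's own error of that ratio, on the log2 scale, and covers measurement of the spot, not the spread between embryos. Its median over these probes was 0.21. Probes that cleared the background well in either channel were kept, 31257 of 41174.

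Of the 135 ribosomal protein probes, 133 were kept, at least 1 for each of the 81 genes. Of these, 128 were well above background in both channels and 5 in the homozygous channel only. The dropped probes were 1 of Rps19 and 1 of Rps2, both not well above background in either channel. Most of the kept probes sat at the top of the array's range: 93 of the 133 had a mean log2 intensity above 16, where the whole array had 351 probes.

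Ribosomal protein probes had higher levels in the homozygous channel as a group. Their median log2 ratio was 0.77, with quartiles of 0.31 and 1.17, against 0.01 for the 31124 other kept probes. At least 2-fold higher were 48 of 133, where 0.646% of all kept probes were, and at least 2-fold lower was 1 of 133, where 1.75% of all kept probes were. Above 0 were 120 of 133, against 51.4% of all kept probes. Counted by gene, with the median over a gene's probes, 32 of 81 were at least 2-fold higher and 1 was at least 2-fold lower, where the shares over all gene names were 0.578% and 1.88%. Rpsa was among the 32 only through a probe seen in the homozygous channel alone; over the 80 genes with a probe measured in both channels, the counts were 31 and 1. The size of the ratio depended on the scaling: by the scanner software's own ratio the median was 0.41 and 17 of 133 probes were at least 2-fold higher, where 3.62% of all kept probes were. With median centring in place of loess the median was 1.69 and the count 100 of 133, where 3.69% of all kept probes were.

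Ratios bent upward at the top of the intensity range for other genes too. From a mean log2 intensity of 16 to 17, the 245 other probes had a median log2 ratio of 0.42, and 30 of them were at least 2-fold higher. In the same range the 90 ribosomal protein probes had a median of 0.96, and 43 were at least 2-fold higher. From 15 to 16 the medians were 0.03 for 12 ribosomal protein probes and 0.01 for 543 others, and from 14 to 15 they were -0.16 for 5 and -0.07 for 1012. The medians parted above 16 and lay close together from 14 to 16.

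**Figure D1:**
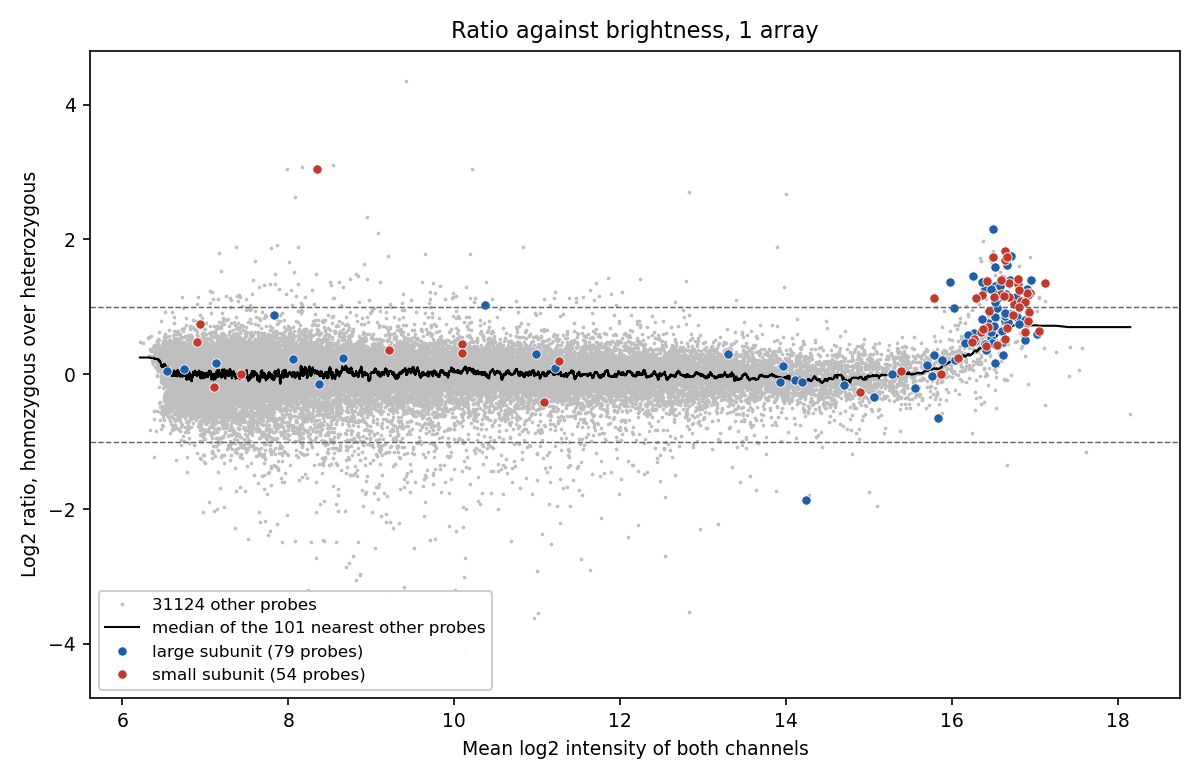
Log2 ratio of homozygous over heterozygous against the mean log2 intensity of both channels, for 31124 other probes (grey) and the 133 kept ribosomal protein probes (large subunit blue, small subunit red). The black line is the median of the nearest other probes, dashed lines are 2-fold, and the line turns upward where most of the coloured points sit.

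Each ribosomal protein probe was next set against the median ratio of the other probes nearest to it in mean log2 intensity. The median difference was 0.26, with quartiles of 0.03 and 0.60, against the median ratio of 0.77 before. It was 0.45 where probes were matched on the heterozygous channel alone and 0.19 where matched on the homozygous channel alone. Above 0 were 104 of 133 probes, where 49.7% of all kept probes were, and at least 1 above were 11 of 133, where 0.438% of all kept probes were. Among probes with a mean log2 intensity above 16, at least 1 above were 8 of 93 ribosomal protein probes and 7 of 258 others. At least 1 below was 1 of 133, Rpl14, where 1.8% of all kept probes were. The median difference stood at 0.35 for the 54 small subunit probes and at 0.19 for the 79 large subunit probes. Above 0 were 44 of the 54 and 60 of the 79.

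Some of the equally bright probes were themselves ribosomal. Among the 258 other probes above 16, 41 were described as a cytosolic ribosomal protein, named for a subunit gene outside the rule or shared a run of 20 letters with a ribosomal protein probe. Those 41 had a median log2 ratio of 0.79, the remaining 217 had 0.38, and the 93 ribosomal protein probes had 0.93. Against other probes without these ribosomal copies, a comparison chosen after seeing the data, the median difference of the 133 was 0.33, and 115 were above 0. At least 2-fold higher were 44 of the 93, 11 of the 41 and 22 of the 217, where 12.8% of all 258 other probes above 16 were.

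**Figure D2:**
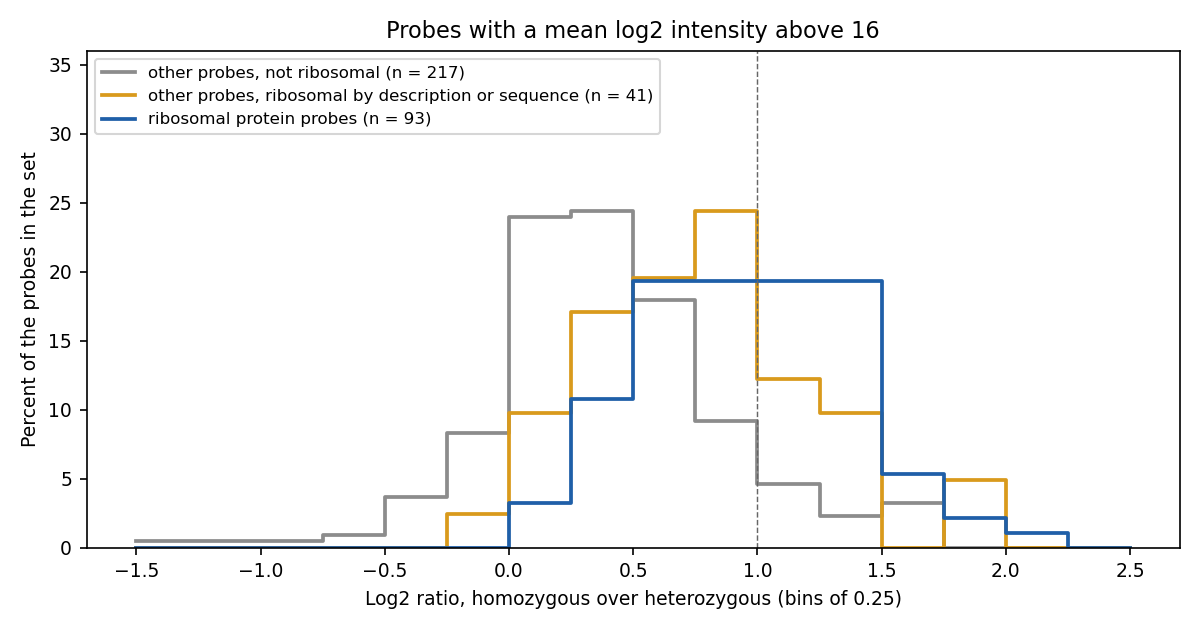
Share of probes in each bin of log2 ratio, for probes with a mean log2 intensity above 16: 93 ribosomal protein probes (blue), 41 other probes that are ribosomal by description or sequence (orange) and 217 remaining probes (grey). The blue curve lies furthest right, with a median of 0.93 against 0.79 and 0.38, and the curves overlap.

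The abundant genes that are not ribosomal did not all share the rise. The 5 brightest were Hbb-b1, Hba-a2 and Hba-a1, which encode globins, Sftpc, which encodes a surfactant protein, and CYTB, which is mitochondrial, and their log2 ratios were -0.31, 0.38, 0.06, 0.33 and -0.46. The first is the median of 4 probes that ranged from -1.16 to 0.40. Other very bright genes were as high as the ribosomal proteins: Tmsb4x, an actin-binding peptide, stood at 1.74 ± 0.24, and Ptma, an acidic nuclear protein, at 1.65 ± 0.24. Of the 22 bright, non-ribosomal probes at least 2-fold higher, 9 were histone probes by name, between 1.03 and 1.72. These were named after their values were seen.

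Large subunit. Rpl41, the smallest ribosomal protein, had the highest ratio of any ribosomal protein probe measured in both channels. Its heterozygous level was 15.41 and its homozygous level 17.57, a log2 ratio of 2.15 ± 0.26, and it lay 1.61 above equally bright probes. Rpl37a had levels of 15.85 and 17.48, a ratio of 1.62 ± 0.23. Rpl5, which carries 5S ribosomal RNA into the ribosome, had levels of 15.72 and 17.31 and a ratio of 1.60 ± 0.23. Both lay above probes of equal brightness, by 0.93 and 1.04. Rpl9 had levels of 15.53 and 16.99 and a ratio of 1.46 ± 0.23.

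Rpl14 went the other way. Its single probe, at chromosome 9, 120423269 to 120423328 (mm8), had a heterozygous level of 15.18 and a homozygous level of 13.31. The log2 ratio was -1.87 ± 0.26, or 3.65-fold lower, and it lay 1.76 below equally bright probes on the log2 scale. It was the only ribosomal protein probe at least 2-fold lower, and its ratio ran from -1.12 with median centring to -1.88 with normexp offset 0 over the alternatives. Rpl30 had levels of 15.65 and 15.45 and a ratio of -0.21 ± 0.21, within its error. Rpl4, which lines the exit tunnel, had levels of 15.63 and 15.77 and a ratio of 0.13 ± 0.20.

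Small subunit. Rps14, a protein of the subunit's platform, had a heterozygous level of 15.72 and a homozygous level of 17.55, a log2 ratio of 1.83 ± 0.24. Rps16 had levels of 15.62 and 17.36 and a ratio of 1.74 ± 0.24. Both stood above equally bright probes, by 1.15 and 1.20. No small subunit probe was 2-fold lower, and 26 of 54 were at least 2-fold higher, against 22 of 79 in the large subunit, where 0.646% of all kept probes and 12.8% of other probes above 16 were. Rps6, the substrate of S6 kinase, had levels of 15.99 and 16.48 and a ratio of 0.49 ± 0.20 at its bright probe.

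**Figure D3:**
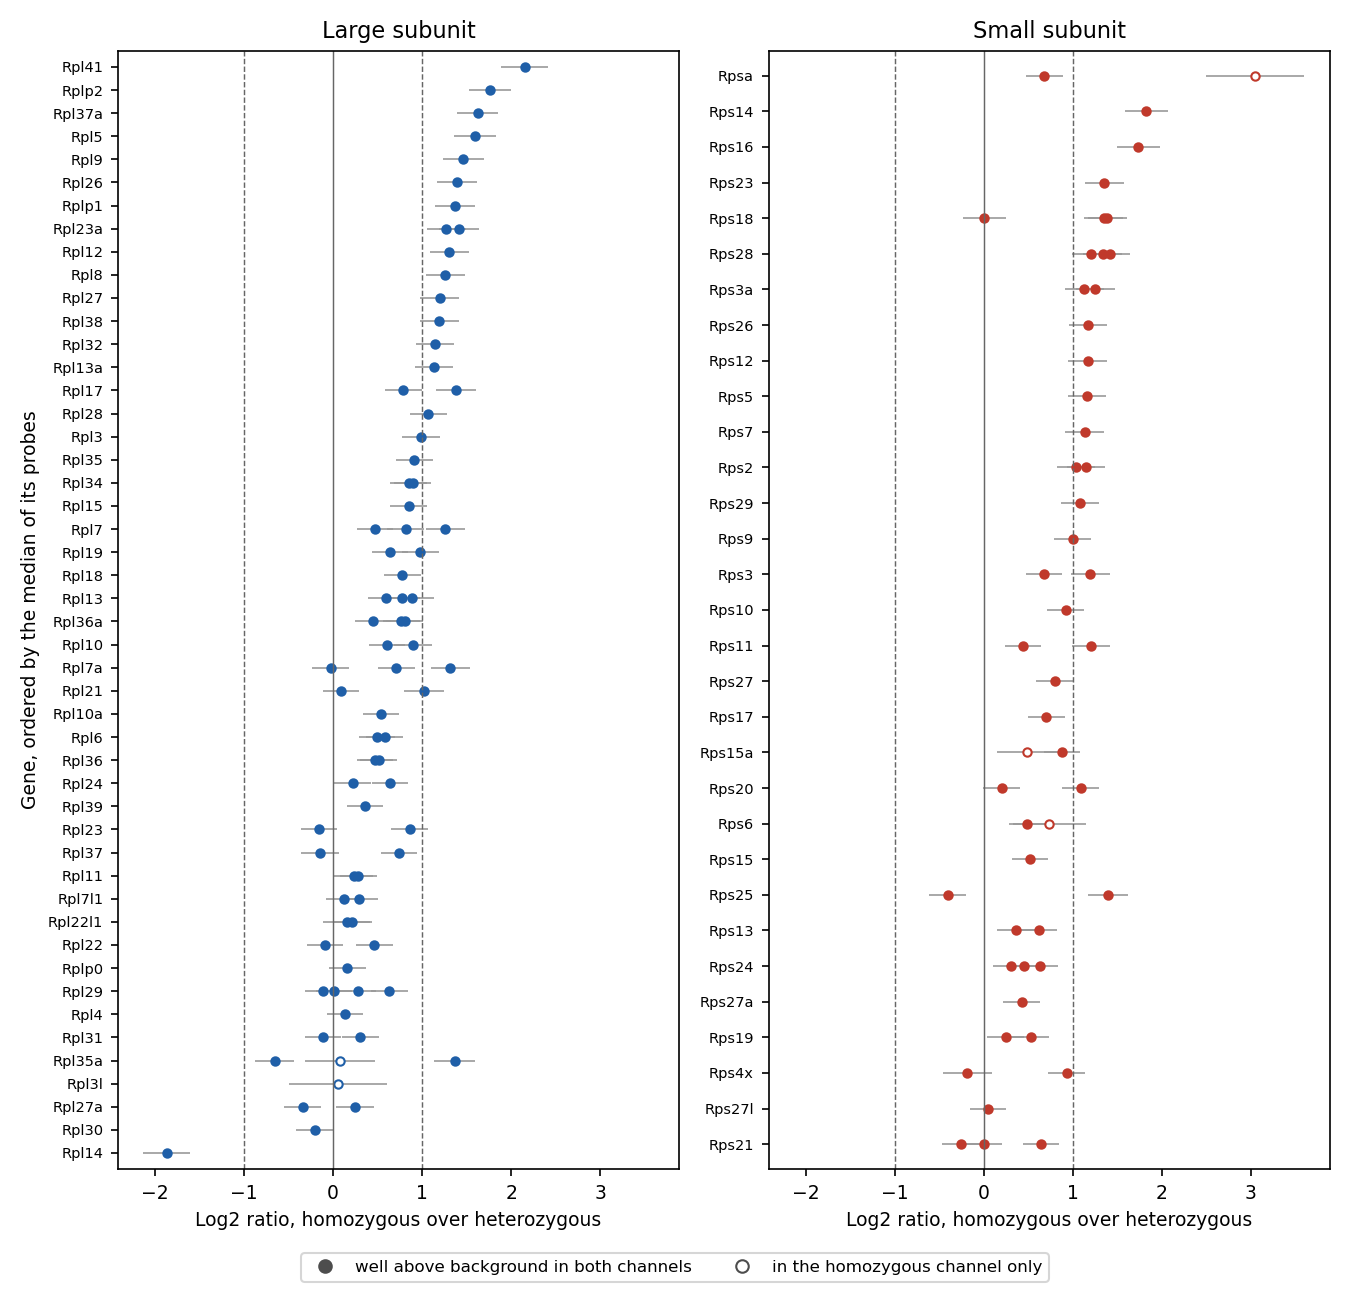
Log2 ratio of kept ribosomal protein probes by gene, large subunit left and small subunit right, with the scanner software's error as bars and genes ordered by the median of their probes. Filled points were well above background in both channels and open points in the homozygous channel only. Most points lie right of 0, and Rpl14 lies alone below -1.

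Stalk proteins and Rpsa. The stalk of the large subunit, which recruits translation factors, is built from Rplp0 with copies of Rplp1 and Rplp2. Rplp2 had levels of 15.83 and 17.59, a log2 ratio of 1.76 ± 0.24, and Rplp1 had levels of 15.67 and 17.05, a ratio of 1.37 ± 0.22. The Rplp0 probe, averaged over 10 spots, had a lower ratio than both, with levels of 16.43 and 16.59 and a ratio of 0.16 ± 0.21, which was 0.39 below equally bright probes. The file also lists Rplp0 under Arbp, outside the name rule, with probes at 0.86 ± 0.21 and 1.82 ± 0.24. The 3 probes of this gene thus ranged from no clear difference to 3.54-fold. Rpsa, the small subunit protein also known as the laminin receptor, had a bright probe at 16.32 and 17.00, a ratio of 0.68 ± 0.21. Against equally bright probes that probe stood at -0.01. The other Rpsa probe, further 3′ at chromosome 9, 119980547 to 119980606 (mm8), was not well above background in the heterozygous channel. Its level there is thus only a bound, and the homozygous level was at least 8.29-fold higher.

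Paralogs. Genes named as relatives of another ribosomal protein gene, Rps4x apart, had log2 ratios between 0.05 and 0.30. Rpl22l1 had probes at 0.22 and 0.16, Rpl7l1 at 0.12 and 0.30, and Rps27l at 0.05 ± 0.20. Rpl3l, a muscle form of Rpl3, was barely above background in the homozygous channel only and gave no fold. Rps4x, the X-linked gene, had a bright probe at 0.93 ± 0.21 and a dim one at -0.19 ± 0.27. Their namesakes Rpl3 and Rps27 stood at 0.99 ± 0.21 and 0.80 ± 0.21, and Rpl22 had probes at 0.46 and -0.09. The probes differ in brightness, and against equally bright probes Rps27 and Rps27l lay alike, at 0.07 and 0.06. On that measure Rpl22 stood at -0.03 and 0.00, Rpl22l1 at -0.01 and 0.15 and Rpl7l1 at 0.19 and 0.31. Other namesakes stayed higher, with Rpl3 at 0.76 and Rpl7, the namesake of Rpl7l1, at 0.21, 0.76 and 0.43. The bright Rps4x probe stood at 0.50 and the dim one at -0.11.

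Probes of the same gene did not always agree. Of 40 genes with at least 2 kept probes, 19 spanned at least 0.5 on the log2 scale and 7 at least 1. The median span was 0.42. Over probes above a mean log2 intensity of 14, 3 of 25 ribosomal protein genes spanned at least 1, against 5 of 196 other genes, and the median spans were 0.35 and 0.13. These genes differ in brightness, and by difference from equally bright probes the counts were 1 of 25 and 5 of 196. On that measure the median spans were 0.26 and 0.13, and 24.0% and 7.65% of the genes spanned at least 0.5. Over probes above 16 alone, a limit added after seeing the data, 0 of 18 ribosomal protein genes and 3 of 17 others spanned at least 1, with median spans of 0.29 and 0.52, so the wider span of ribosomal protein genes was not seen at the top of the range.

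**Figure D4:**
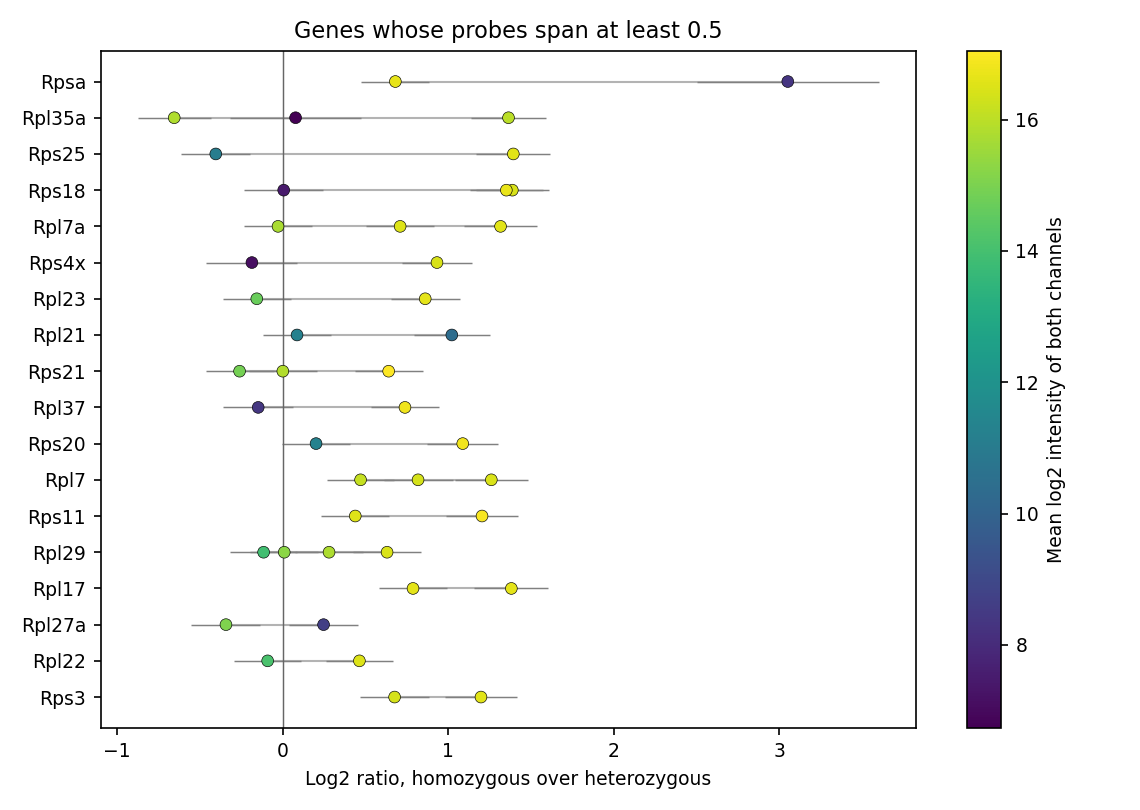
Log2 ratio of every kept probe of genes whose probes spanned at least 0.5, with the scanner software's error as bars and colour for mean log2 intensity. Several genes have a bright probe well above 0 and a dimmer one near 0, while Rpl35a has bright probes on both sides of 0.

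The Rpl35a pair shown above differed most among bright probes. The first, chromosome 16, 32977241 to 32978436 (mm8, crossing an intron), had levels of 15.29 and 16.66, a ratio of 1.36 ± 0.23. The second, 32977256 to 32978456, had levels of 16.15 and 15.50, a ratio of -0.65 ± 0.22. They overlap by 45 letters and differ at 4 of these, G41A, A44C, A48C and T58C, counted from the 5′ end of the first probe, whose letter comes first. The Rpl36 pair overlap by 39 letters and differ at A15G and G16A, and their ratios were 0.47 ± 0.20 and 0.51 ± 0.20. A difference in letters thus went with opposite ratios in one pair and with like ratios in the other. Overlapping probes with no differing letter gave 0.80 and 0.76 for Rpl36a, and -0.26 and 0.00 for Rps21. Which allele or copy each letter belongs to was not tested.

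Other genes spread too, some across probes of unlike brightness and some, such as Rpl7, across bright ones. Rps25 had 1.39 ± 0.22 at its bright probe and -0.40 ± 0.21 at a dim one further 3′. Rpl7a had 0.71, 1.32 and -0.03, and Rpl7 had 0.47, 1.26 and 0.82, all at probes above a mean log2 intensity of 14. Rps18 had 1.39 and 1.35 at bright probes and 0.01 at a dim one. Position along 1 strand was compared in 24 genes, using only probes above a mean log2 intensity of 14, which leaves out Rps25. The 5′ most probe was higher in 14 of the 24, and the median of the 5′ minus the 3′ ratio was 0.07. Against equally bright probes the 5′ most probe was higher in 11, and the median was -0.02. Rpl10 was the only gene with probes placed on 2 chromosomes, X and 13, at 0.61 and 0.90.

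Within the bright ribosomal protein probes the ratio went with the letters of the probe. Across the 93 probes above 16, Pearson's r of the log2 ratio with the number of A was -0.41 and with the number of T was 0.37, whereas with GC content it was 0.04. With the difference from equally bright probes in place of the ratio, r was -0.25 for A and 0.33 for T. In the 258 other bright probes the values were -0.02, -0.13 and 0.16. The 35 probes with 9 to 16 A had a median ratio of 1.20, the 35 with 17 to 20 A had 0.82 and the 23 with 21 to 26 A had 0.79. These points share 1 array, and probes of a gene share a target, so the correlation is a description. The part of the letters in the ratio was not tested.

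Dim ribosomal protein probes lay slightly above others as well, away from the bend. Below a mean log2 intensity of 12, 15 probes were well above background in both channels. Their median ratio was 0.23, and 12 of the 15 were above 0. The 21887 other such probes had a median of -0.01, and 49.2% of them were above 0. From 12 to 16, 20 probes had a median of -0.01 and the 5513 others had -0.02.

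Genes that work with the ribosome were read from lists. Of the subunit genes outside the name rule, Fau, a ubiquitin-like protein fused to a small subunit protein, stood at 1.09 ± 0.21 and Gnb2l1, the Rack1 protein of the small subunit, had probes at 1.05 and 0.50. Against equally bright probes Fau stood at 0.37 and the Gnb2l1 probes at 0.33 and -0.08. Values for genes of the lists below are medians over a gene's probes. Of all kept probes 51.4% were above 0, and of all gene names 0.578% were at least 2-fold higher and 1.88% at least 2-fold lower. Of 13 measured other TOP messages, 12 were above 0, 1 was at least 2-fold higher and the median ratio was 0.21. That gene was Eef1a1, the elongation factor that brings transfer RNA, at 1.01, followed by Eef1b2 at 0.87 and Npm1 at 0.70, while Eef2 stood at 0.01 and Tpt1 at 0.23. Of 25 ribosome assembly genes, 22 were above 0, none passed 2-fold, and the median was 0.19. Fbl, which methylates ribosomal RNA, stood at 0.38 and Ncl, nucleolin, at 0.17. Of 13 genes of mTORC1 and S6 kinase control, 10 were above 0, none passed 2-fold and the median was 0.10. Of 75 mitochondrial ribosomal genes, 33 were above 0, none passed 2-fold and the median was -0.05. The median differences from equally bright probes were 0.11 for the TOP messages, 0.20 for assembly, 0.07 for mTORC1 and -0.01 for the mitochondrial ribosome.

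**Figure D5:**
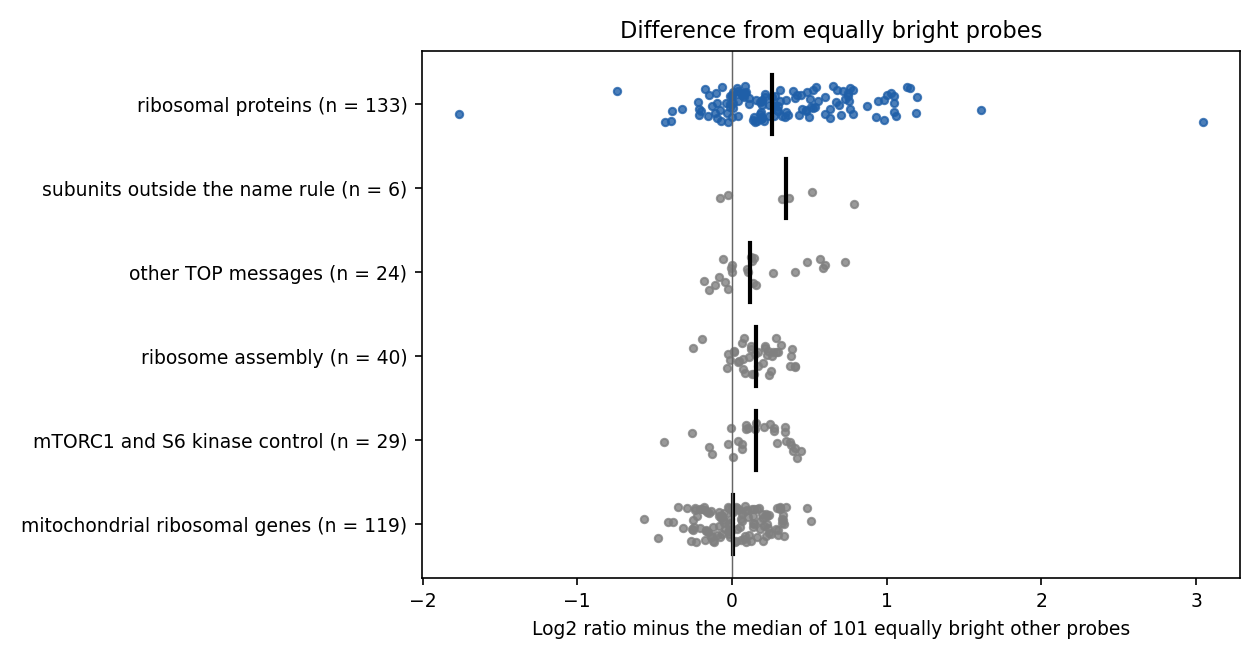
Each probe's log2 ratio minus the median of equally bright other probes, for the ribosomal proteins (blue) and for probes of the lists of related genes (grey), with the median of the probes as a black bar. The ribosomal proteins have a median of 0.26 and the widest spread, and the mitochondrial ribosomal probes centre on 0.

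Where the transcripts start was looked at because TOP tracts are what these genes share. Promoter windows of RefSeq (GRCm38.p6) were found for 61 of the 81 genes. The letters CTTTC, chosen after the windows were seen, stood within 15 bases of the annotated start, on the gene's strand, in 16 of the 61 genes, or 26.2%, against 4.76% of 27025 genes. On either strand the shares were 29.5% and 8.83%. Windows of 30 bases, 15 before and 15 from the annotated start, are shown with CTTTC in capitals for genes that hold it at high, middle and low ratios (1.76, 0.91 and -0.05) and for genes that lack it, Rps9, 2-fold higher, and Rpl14, at -1.87. Rpl41, Rps16, Rpl37a, Rpl5 and Rpl9, among the highest, also lacked it there.
Rplp2, chr7:141447636-141447665, plus strand: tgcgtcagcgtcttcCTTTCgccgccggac
Rpl35, chr2:39005117-39005146, minus strand: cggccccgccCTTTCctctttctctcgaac
Rpl27a, chr7:109519180-109519209, plus strand: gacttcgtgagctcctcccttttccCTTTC
Rps9, chr7:3704026-3704055, plus strand: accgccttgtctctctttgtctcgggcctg
Rpl14, chr9:120571502-120571531, plus strand: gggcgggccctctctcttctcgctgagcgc
The median ratio was 0.88 over the 16 genes with CTTTC there and 0.54 over the other 45, with ranges of -0.05 to 1.76 and -1.87 to 2.15, so the groups overlap. Against equally bright probes the medians were 0.29 and 0.21. A match to these letters is a description and not a start site. The windows of Rps9 and Rpl14, which lack CTTTC, still hold runs of pyrimidines. The split is thus not one of genes with and without a TOP tract, and TOP tracts were not scored.

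The labels were checked on the array as a whole. Foxj1, the targeted gene, had levels of 9.53 and 7.61 and a log2 ratio of -1.92 ± 0.30, and whether its probe lies in the part removed was not settled. Fetal lung markers were present in both channels, with summed linear levels of 176126 and 211521 over 7 of 7 genes in the heterozygous and homozygous channel, most of it from Sftpc. Of the 7, 4 were below 0, and Sftpb was at least 2-fold lower, at -1.72 ± 0.26. The median ratio of the 7 was -0.02, and their median difference from equally bright probes was -0.18. Markers of cardiac and striated muscle were lower in the homozygous channel, with 5 of 8 genes at least 2-fold lower and summed levels of 43166 and 17046. Of 8 erythroid genes, 6 were below 0 and 1 was at least 2-fold lower, with a median ratio of -0.58 and a median difference from equally bright probes of -0.84. Their summed levels, mostly globin, were 447805 and 390922. Over 6 leukocyte genes the sums were 7945 and 8743, mostly from Lyz, and the median ratio was 0.04. Over 10 genes of dividing cells the sums were 159497 and 192790, and the median ratio was 0.06. No marker list was at 0 in either channel, and their part in the ribosomal protein ratios was not tested. In these whole lobes, fewer cells of a type and less RNA per cell cannot be told apart.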

How the data were processed

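Both samples shared 1 two-colour Agilent array, whose scanner table was deposited with each sample in identical copies. Per the submitters' processing notes, the table came from Agilent Feature Extraction 9.5.3.1. It holds spot intensity per channel and a log10 ratio, per the file headers. The deposited series table holds processed intensity with a floor of 15, and its columns were 1.68 times the scanner's processed signals in both channels, with scale and centring otherwise unstated. Its column medians were 139.85 and 138.83.

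Mean intensities were background-corrected with normexp (offset 50) and normalised by loess in limma 3.58.1 (R 4.3.3), with 1639 control spots at weight 0 and 169 outlier spots left out. No spot was saturated. The precision is limited by the single array. Replicate spots were averaged, and different probes of a gene stayed separate, except in values given per gene, which are medians over its probes. The log2 ratio is red over green. A bound sets the homozygous level against the higher of the dim probe's own level and the lowest level well above background.

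Named were the 10 highest and 10 lowest genes, genes whose probes spanned at least 0.5, the stalk proteins and Rpsa, the paralogs, the 5 brightest other genes and list genes past 2-fold. The members and lists were chosen with earlier results of these data known. The steps were tested on a simulated array with known shifts. Its shifted probes were drawn at random, up and down alike, so it did not test a bright group that shifts mostly in the same direction. Alternatives covered background correction, normalisation, the filter, outlier spots, the series table and the choice of equally bright probes. A few genes that the naming rule picks are not reported here by name and are left out of the plots by gene, but stay in every count and median.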

Additional observations from a re-analysis of the deposited data

How the results depend on the processing

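Over 41 values of the group results under the alternatives, all kept their direction, 6 moved by more than the scanner error or, for counts, over 1.5 times, and 35 stayed within those limits. Without loess, after median centring, the median log2 ratio was 1.69 and 100 probes were at least 2-fold higher, where 3.69% of all kept probes were and the median of all kept probes was 0.27. With the scanner software's ratio the median was 0.41 and 17 probes were at least 2-fold higher, where 3.62% of all kept probes were, and the series table gave 0.41 and 17. The difference from equally bright probes was between 0.19, with probes matched on the homozygous channel, and 0.45, matched on the heterozygous channel, which is within the scanner error but over 1.5 times the 0.26 reported. Of 332 values for single genes, 76 moved by more than the scanner error, 35 of them under median centring. None that was past 2-fold changed direction, but some smaller ratios did. Rplp0, at 0.16, was -0.235 by the scanner software's ratio and 1.14 with median centring. No paired analysis was possible because each genotype has 1 sample. The single array sets the limit: without a dye swap or a second embryo of either genotype, the spread between lungs is unknown.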
